A study of Mus musculus with 8 samples.

Results

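A set of 7369 regions of the mouse genome carried a peak of H3K27me3 in the libraries AstroEGFR 1, PT1 and PT4, and none in AstroEGFR 3 or PT3. The regions were chosen by the peak calls themselves. The 5 deposited peak lists were pooled, peaks that overlapped or touched were merged, and a merged region was selected when it held a peak from each of the first 3 libraries, no peak from the other 2, and had a merged width below 10000 bp. The selected regions were 7.46% of the 98788 merged regions below this width, and 99646 regions were formed in all. Because all 5 lists entered the choice, every value given for the selected regions is a description of these libraries, without a test.

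H3K27me3, trimethylation of histone H3 at lysine 27, is laid down by Polycomb repressive complex 2 (PRC2), whose catalytic subunit is EZH2 or EZH1. In neural cells, as in other lineages, the mark is known for covering the promoters of silent developmental regulators, and it can also spread over broad stretches of silent chromatin. Peak callers that were designed for narrow signals often divide such stretches into several short peaks.

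The mark was mapped by chromatin immunoprecipitation and sequencing, to ask how it is distributed at 2 stages of gliomagenesis. AstroEGFR cells (2 libraries, numbered 1 and 3) were astrocytes taken from the cerebral cortex of C57BL/6 mice at postnatal day 5. They were knocked out for p16/p19, the products of the Ink4a/Arf locus, and had received human EGFRvIII, a constitutively active form of the EGF receptor, from a retrovirus. PT cells (3 libraries, PT1, PT3 and PT4) were glioma propagating cells cultured from tumours that such C57BL/6 astrocytes had formed in CD1 Nude mice, hosts that lack T cells, so they shared the deletion and the receptor with the astrocytes. All lines had been passaged fewer than 10 times. The AstroEGFR numbers stand for separate batches of astrocytes, and the labels do not say from which batch each PT line descended. The selected pattern runs along these numbers, with a peak in AstroEGFR 1 and PT1 and none in AstroEGFR 3 and PT3, while PT4 has no astrocyte library of its number here. Whether the same number marks a shared origin is not given, so batch of origin and the technical features of the lists described next cannot be told apart. Peak lists hold no expression values, so the identity of the cells was not checked against marker genes. Since the selected regions were found in 1 of 2 astrocyte libraries and in 2 of 3 tumour libraries, the rule did not separate the stages.

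The libraries stood apart in features that have to be read with every value below. The 3 lists in which the selected regions had peaks numbered 34021 (AstroEGFR 1), 64504 (PT1) and 66279 (PT4) peaks, and the absent ones 3722 (AstroEGFR 3) and 40090 (PT3). AstroEGFR 3 was thus by far the shortest list, while that of PT3 was longer than that of AstroEGFR 1. The lists of AstroEGFR 3 and PT3 also held 0 peaks on sequences that the assembly does not place on a chromosome, against 179, 194 and 236 in AstroEGFR 1, PT1 and PT4. On such sequences lay 119 of the selected regions (1.61%), of which 89 were on chrUn_random. They had entered the set without any peak of the absent libraries on the same sequence, and the choice rested on 7231 regions when autosomes alone were used. Sequencing depth could not be read from the lists. The absence of a peak means that a list had no peak there at its threshold, and differences in depth or enrichment between libraries and differences in the mark cannot be told apart.

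The choice depended on single libraries. Without AstroEGFR 1, so that regions had to be in PT1 and PT4 and absent from AstroEGFR 3 and PT3, the number rose to 22778. Without PT3 it was 12924, and without AstroEGFR 3 it was 7539, so that the short AstroEGFR 3 list removed few regions and the PT3 list removed most of those that were removed. Counted directly, 13785 regions below the width limit had a peak in AstroEGFR 1, PT1 and PT4, whatever the other libraries held. Of these 53.5% were the selected regions, 6251 (45.3%) also had a PT3 peak and 1070 (7.76%) had an AstroEGFR 3 peak. For comparison, 340 regions were found in AstroEGFR 3 and PT3 alone. Other combinations of 3 libraries were smaller. There were 3718 regions in the 3 PT libraries only, 467 in AstroEGFR 1, PT1 and PT3 only, and 444 in AstroEGFR 1, PT3 and PT4 only.

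The selected regions were of modest width. Their median was 1917 bp, the quartiles were 1326 and 2857 bp, 10% were narrower than 1017 bp and 10% wider than 4131 bp, and together they covered 17.1 Mb. The narrowest had 389 bp. The widest was chr17:35411826-35421817 with 9992 bp, followed by chr13:55495000-55504983 with 9984 bp and chr9:51123373-51133303 with 9931 bp. Just outside the limit were chr7:86985342-86995364 with 10023 bp, chr11:79487291-79497326 with 10036 bp and chr7:107332157-107342290 with 10134 bp. Only 41 regions of the same combination of libraries were at or above the limit, which made 7410 of any width. Coordinates follow the lists and are on mm9, counted from 1. Gene annotation and genome sequence of that build were not used here, so no gene is given for a region.

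Each library, taken by itself, contributed 1 peak in most selected regions. The share of regions with 1 peak from all 3 at once was not counted. AstroEGFR 1 had 1 peak in 6280 of them (85.2%), PT1 in 5741 (77.9%) and PT4 in 5476 (74.3%). The regions with 3 or more peaks of a library numbered 177 for AstroEGFR 1, 308 for PT1 and 426 for PT4, with at most 5, 6 and 6 peaks. In total the regions took 8668 peaks of AstroEGFR 1, which was 25.5% of its list, 9393 peaks of PT1 (14.6%) and 9793 peaks of PT4 (14.8%). The peaks of AstroEGFR 1 and of PT1 had the same median width in these regions, 1049 bp, and those of PT4 had 964 bp.

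The peaks of the 3 libraries overlapped in most selected regions. This follows in part from the merging, because a region is a chain of peaks that overlap or touch. A median of 1146 bp of a region was covered by AstroEGFR 1, 1403 bp by PT1 and 1290 bp by PT4, or 73.7%, 82.5% and 76.0% of its width. PT1 covered the most bases in 2928 regions (39.7%), AstroEGFR 1 in 2425 (32.9%) and PT4 in 2016 (27.4%). At least 1 bp lay in peaks of all 3 libraries in 7030 regions (95.4%), against 95.8% of the 13785 regions held by these libraries with or without the others. The stretch common to all 3 had a median of 729 bp, or 44.0% of the width. The remaining 339 regions had no such base and were joined by peaks that only overlapped in pairs or touched.

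PT1 and PT4 were more alike in these regions than either was like AstroEGFR 1, and they were also the pair of lists closest in length. The pooled Jaccard index, the number of bases in peaks of both libraries divided by the number in peaks of either, was 0.655 for PT1 and PT4, 0.540 for AstroEGFR 1 and PT1, and 0.536 for AstroEGFR 1 and PT4. Each pair nevertheless overlapped in nearly all regions, with 98.8% for PT1 and PT4, 98.8% for AstroEGFR 1 and PT1 and 98.1% for AstroEGFR 1 and PT4. These high shares follow in part from the merging of peaks that overlap or touch. The covered bases of PT1 and PT4 had a Spearman correlation of 0.706 across the 7369 regions, and those of AstroEGFR 1 had 0.426 with PT1 and 0.436 with PT4. The points of these correlations share the bounds of the merged region, and neighbouring regions are not independent.

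Peak strength was read from the score that the authors' peak caller gave, and only within a list. For each library the best peak of a region was ranked as a percentile, the share of all peaks of that list with a score no higher. In AstroEGFR 1 the selected regions had a median percentile of 54.6, with 10% of them below 13.8 and 10% above 87.2. In PT1 the median was 71.6, with 10% below 24.3 and 10% above 92.2, and in PT4 it was 70.6, with 10% below 24.1 and 10% above 91.7. The median scores were 146 in AstroEGFR 1, 266 in PT1 and 238 in PT4. The best peaks thus stood near the middle of the AstroEGFR 1 list and in the upper part of the tumour lists. Because a region with several peaks is ranked by its best one, percentiles above 50 are not by themselves a sign of strong regions.

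**Figure D1:**
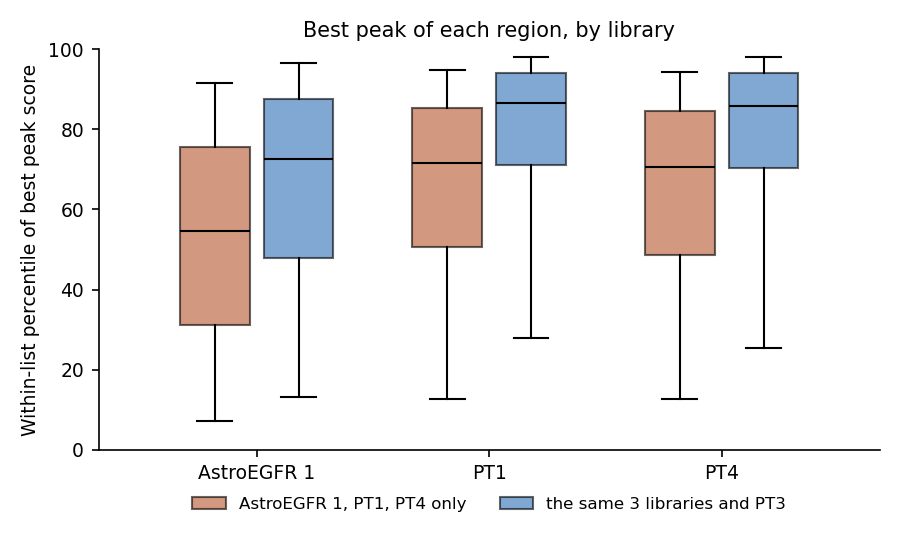
Rank of the best peak of a region by score, as a percentile of its list (vertical axis, 0 to 100) in AstroEGFR 1, PT1 and PT4, for regions of these 3 libraries only (orange, 7369 regions) and for regions that also had a PT3 peak but no AstroEGFR 3 peak (blue, 5346 regions). Boxes run from the lower to the upper quartile with a line at the median, and whiskers from the 5th to the 95th percentile of the regions; the orange medians are 54.6, 71.6 and 70.6 and the blue ones 72.6, 86.6 and 86.0.

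Within a region the lowest of the 3 percentiles came from AstroEGFR 1 in 3954 cases (53.7%), from PT4 in 1765 (24.0%) and from PT1 in 1650 (22.4%). PT1 ranked higher than AstroEGFR 1 in 66.3% of the regions, with a median difference of 10.8 percentile points over all regions, and PT4 ranked higher in 65.2%, with a median difference of 9.98 points. The percentiles come from lists of unlike length, and this order was not particular to the selected regions. Where PT3 also had a peak, the medians were 72.6 in AstroEGFR 1, 86.6 in PT1 and 86.0 in PT4. With all 5 libraries they were 84.3, 93.9 and 95.1 in the same order. PT1 and PT4 ranked alike. PT4 was higher in 48.2% of the regions and the median difference, PT4 minus PT1, was -0.53 points. The median absolute difference was 11.9 points between PT1 and PT4, and 21.6 and 21.1 points between AstroEGFR 1 and each of them. Across the 7369 regions the Spearman correlation of the percentiles was 0.590 for PT1 and PT4, 0.286 for AstroEGFR 1 and PT1, and 0.307 for AstroEGFR 1 and PT4, with the same dependence between points as above.

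Few of the selected regions were strong in every library. The lowest of the 3 percentiles had a median of 39.6. The best peak was at or above percentile 75 in each of the 3 lists in 963 regions (13.1%), against 24.8% of all 13785 regions held by the 3 libraries. The 13785 include the selected regions, and the shares are not matched for width. Among the selected regions, the best peak was at or above percentile 90 in each list in 175 and at or above 95 in 51. At the other end, 2426 regions (32.9%) had a best peak below percentile 25 in at least 1 list, but only 48 were below it in all 3.

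A few regions nevertheless scored near the top of all 3 lists, whose highest scores were 3228.29 in AstroEGFR 1 and 3233.06 in PT1 and PT4. Many of the strongest peaks share the score 3100, which was given to 183 peaks of AstroEGFR 1, 1110 of PT1 and 1035 of PT4. Scores of at least 3100 in all 3 libraries were found in 5 selected regions. On placed chromosomes these were chr10:7229041-7235549 (6509 bp), chr16:86820484-86821881 (1398 bp) and chr4:100984405-100987734 (3330 bp), each with 3100 in AstroEGFR 1, PT1 and PT4. A PT3 peak lay 5220 bp from the first of these, 626204 bp from the second and 84969 bp from the third. The nearest AstroEGFR 3 peaks were 75600, 774510 and 696858 bp away. The other 2 were on chrUn_random, at 5248497-5252178 and 5494433-5497432. So those on placed chromosomes ranged from a narrow region 626204 bp from the nearest PT3 peak to a broad one 5220 bp from it.

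The next regions by their weakest best peak were scored as follows. A further chrUn_random region, 3754091-3762161, had a score of 2895.67 in AstroEGFR 1, 3222.65 in PT1 and 3100 in PT4. The region chr5:107570183-107577128 had 2384.71 in AstroEGFR 1, 3172.32 in PT1 and 3100 in PT4, and a PT3 peak lay 1434 bp from it. These were broad regions, of 8071 and 6946 bp, in which each library had 1 long peak. At chr10:85324556-85331487 the scores were 2023.92, 2917.93 and 3100 in the same order, with a PT3 peak at 11146 bp. At chr5:28497261-28506415 they were 1481.66, 3100 and 3100, with a PT3 peak at 1969 bp. The last, chr8:19893971-19902864, had 3144.24, 2851.79 and 3100 and was the only one of these 5 that ranked highest within the AstroEGFR 1 list. Its nearest PT3 peak was 43502 bp away. Of the 10 strongest regions, 3 were thus on unplaced sequences.

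Regions on unplaced sequences ranked higher than the rest. The 119 of them had a median lowest percentile of 66.8, against 39.1 for the 7250 regions on placed chromosomes, and they made up 9 of the 51 regions at or above percentile 95 in each list. The difference was mostly in AstroEGFR 1, where their median percentile was 80.1 against 54.3. In PT1 the medians were 74.1 and 71.6, and in PT4 74.4 and 70.6. They were narrower, with a median of 1502 bp against 1928 bp.

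The 5346 regions held by the same 3 libraries and by PT3, without an AstroEGFR 3 peak, were wider and ranked higher. Their median width was 3409.5 bp, and their median percentiles were 72.6 in AstroEGFR 1, 86.6 in PT1 and 86.0 in PT4. In PT3 itself the median was 66.0. In contrast, the 14364 regions of PT1 and PT4 only were narrower (1115 bp) and weaker than the selected regions, with medians of 52.4 and 51.2. The 3718 regions of the 3 PT libraries only were the nearest of these sets to the selected regions, with 1843.5 bp and medians of 67.6 in PT1 and 65.1 in PT4. With all 5 libraries the median width was 5228 bp, over 905 regions. A merged region spans the peaks of all its libraries, so its width, and with it the number of peaks from which the best is taken, grows with the number of libraries by construction.

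The share of regions with a PT3 peak was higher where the best peaks of the other 3 libraries ranked higher. When the 13785 regions held by AstroEGFR 1, PT1 and PT4 were put into classes by the lowest of their 3 percentiles, a PT3 peak was found in 27.3% of those in the class below 10 (Wilson 95% confidence interval 24.99% to 29.7%). It was found in 83.3% of those in the class from 90 (81.0% to 85.4%). The share rose from class to class, and so did the median width of the regions, from 1531 to 6119 bp. Rank and width were therefore not separated by these classes. The selected regions fell from 72.2% to 16.0% over the same classes, and an AstroEGFR 3 peak was found in 2.58% of the first class and 25.4% of the last. The intervals cover counting error only, and the classes hold between 1093 and 1555 regions. Even in the top class, 175 regions without a peak of AstroEGFR 3 or PT3 remained.

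**Figure D2:**
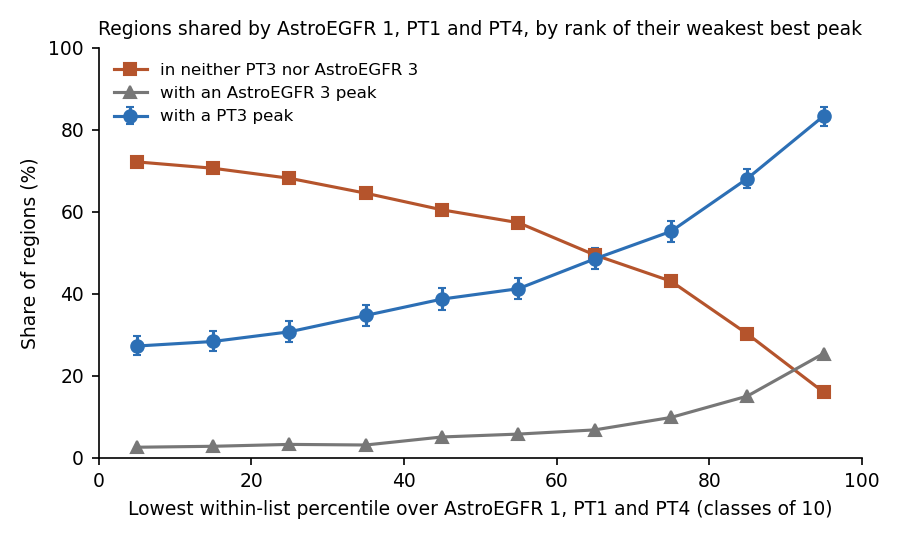
Share (%) of the regions held by AstroEGFR 1, PT1 and PT4 that had a PT3 peak (blue circles, with Wilson 95% intervals), an AstroEGFR 3 peak (grey triangles) or neither (orange squares, the selected regions), by the lowest of the percentiles in the 3 lists, in classes of 10. The share with a PT3 peak goes from 27.3% in the lowest class to 83.3% in the highest, and the selected regions from 72.2% to 16.0%.

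Width went the same way as rank. Below 1000 bp, 672 of 714 regions held by the 3 libraries (94.1%) were selected regions, whereas from 5000 to 10000 bp they were 417 of 2375 (17.6%), and a PT3 peak was found in 5.88% and 80.9% of these classes. A wider merged region has more room for a peak of any library, and the part of this in the relation was not tested. From 1000 bp upward, the selected regions and those with a PT3 but no AstroEGFR 3 peak had similar ranks within a class of width. Below 1000 bp, where 42 regions had a PT3 peak, the selected regions ranked higher. Their median percentiles there were 25.3 against 22.5 in AstroEGFR 1, 43.0 against 36.1 in PT1 and 42.7 against 41.5 in PT4. Between 3000 and 5000 bp they ranked lower in AstroEGFR 1, with 72.3 against 76.3. Between 2000 and 3000 bp the median percentiles were 62.3 and 65.9 in AstroEGFR 1, 79.9 and 79.5 in PT1, and 77.4 and 78.8 in PT4. Between 5000 and 10000 bp they were 85.5 and 86.8, 94.5 and 95.7, and 93.3 and 95.6 in the same libraries.

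PT3 peaks were often close to the selected regions. The distance from the edge of a region to the nearest PT3 peak had a median of 6759 bp, with 10% of the regions within 666 bp and 10% beyond 82331 bp. A PT3 peak was within 1 kb of 1035 regions (14.0%), within 5 kb of 3201 (43.4%) and within 10 kb of 4244 (57.6%). The nearest AstroEGFR 3 peak was much farther, at a median of 137166 bp, and was within 5 kb of 532 regions (7.22%). With either list, 3317 regions (45.0%) had a peak of an absent library within 5 kb, against 36.6% of the 66672 regions without an AstroEGFR 3 or PT3 peak, the selected regions included. When PT3 was left out of the rule and of the distances, the share was 8.91%.

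Other regions without PT3 peaks had somewhat fewer of them nearby. A PT3 peak was within 5 kb of 38.5% of the regions of PT1 and PT4 only, 34.4% of those of AstroEGFR 1 only, 34.4% of those of PT1 only and 29.9% of those of PT4 only, all of them held by fewer libraries. The PT3 peaks that flanked the selected regions within 5 kb numbered 2814. They stood close to the middle of the PT3 list, with a median percentile of 46.3 and a median width of 662 bp against 684 bp for the whole list. The 450 flanking peaks of AstroEGFR 3 had a median percentile of 44.1 in theirs.

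**Figure D3:**
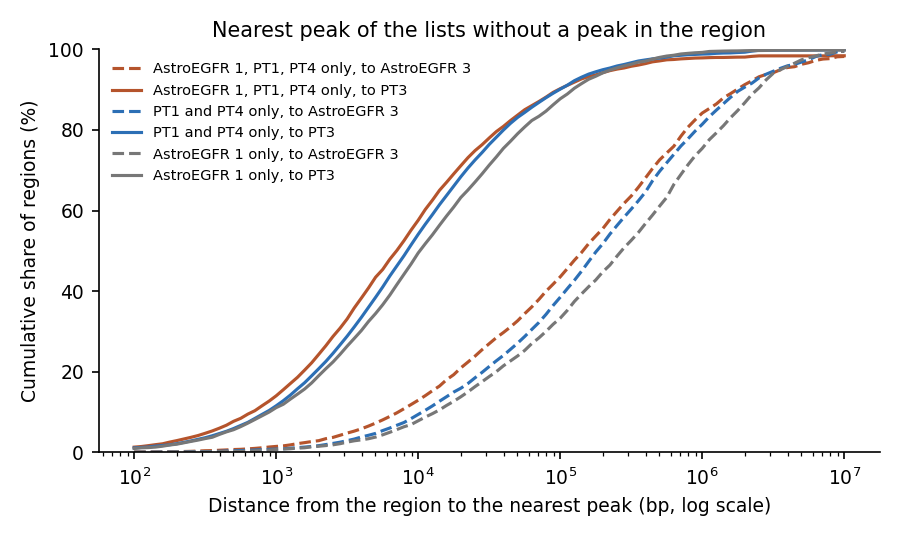
Cumulative share (%) of regions by the distance in bp (log scale) to the nearest PT3 peak (solid) or AstroEGFR 3 peak (dashed), for the selected regions (orange), regions of PT1 and PT4 only (blue) and regions of AstroEGFR 1 only (grey). At 5 kb the solid lines stand at 43.4%, 38.5% and 34.4%; the orange lines stay below 100% because 119 selected regions lie on unplaced sequences and have no distance.

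The rank of the selected regions did not follow their distance from the absent peaks. The 1097 regions within 1 kb of an AstroEGFR 3 or PT3 peak had a median lowest percentile of 39.8 and a median width of 1834 bp. The 575 regions beyond 100 kb (7.80%) had 41.4 and 1899 bp, and the 3 classes between lay from 38.2 to 39.3 and from 1930.5 to 1956 bp. The 5 farthest regions were on chromosomes X, 2 and 5. The region chrX:158987469-158989495 was 7417986 bp from a peak of either list, with scores of 77.69 in AstroEGFR 1, 597.38 in PT1 and 170.92 in PT4. For chrX:91606947-91611484, at 7377410 bp, the scores were 281.85, 1904.87 and 1013.89 in the same order. Both ranked lowest in AstroEGFR 1, at percentiles 11.9 and 79.6, and highest in PT1, at 87.2 and 96.5. The region chr2:41751496-41752052 was 2497729 bp away and had 557 bp, with scores of 120.16, 151.99 and 129.23 that stood near the middle of each list, at percentiles 42.5, 52.9 and 47.3. The remaining 2 were chrX:96573031-96573828 and chr5:14950802-14952667, where AstroEGFR 1 scored 81.97 and 90.28. PT3 had 49 peaks on the X chromosome, so distances there are long for any region.

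The selected regions were more frequent beside each other than beside regions in general. Neighbours of other sets of regions were not counted, so this is not shown to be particular to the selected ones. Of the regions immediately before or after a selected region on the same sequence, 19.1% were selected regions themselves, while they were 7.38% of the neighbours of all regions below the width limit. Regions that held the 3 libraries and PT3 but not AstroEGFR 3 were 9.52% of the neighbours, against 5.60%. Regions of PT3 alone, in contrast, were 5.25% of the neighbours, against 15.7%. Regions of PT1 and PT4 only were 16.0%, against 14.4%. The gap to a neighbour had a median of 669 bp, against 1527 bp for all regions. Neighbouring regions can be parts of 1 broader stretch that the peak caller divided, which was not tested. When peaks up to 1000 bp apart were merged the number of selected regions fell to 4028, of which 1400 kept their bounds. This setting also drops regions that join a peak of AstroEGFR 3 or PT3, or that reach the width limit. Such a peak lay within 1 kb of 1097 selected regions, so the fall does not measure division.

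Joined across gaps of up to 10 kb, the 7250 selected regions on placed chromosomes formed 4745 groups, of which 3311 were single regions (45.7% of the 7250). There were 126 groups of 5 or more, with 774 of the 7250 regions. Groups of other sets of regions are not given here, so these counts stand without a comparison. The groups named below were those with the most selected regions, so few peaks of the absent libraries within them follow in part from the choice. The largest by number of regions was at chr11:60401793-60509968, a stretch of 108 kb in which 27 of 38 merged regions were selected. AstroEGFR 1 had peaks in 31 of these 38 regions, PT1 in 34, PT4 in 34, and AstroEGFR 3 and PT3 in 0. The nearest PT3 peak was 77275 bp away and the nearest AstroEGFR 3 peak 673828 bp. This stretch was unlike the set as a whole in that AstroEGFR 1 ranked above PT1, with a median percentile of 77.7 in AstroEGFR 1, 56.9 in PT1 and 75.4 in PT4.

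**Figure D4:**
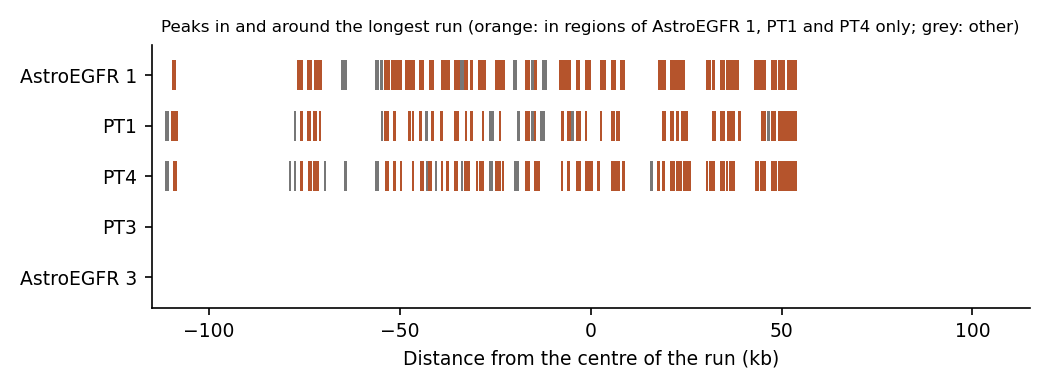
Peaks of the 5 libraries in and around the largest group of selected regions, on chromosome 11 (horizontal axis: distance in kb from the centre of the group; 1 row per library; orange: peaks in selected regions, grey: other peaks). AstroEGFR 1, PT1 and PT4 have peaks throughout the group, and the rows of PT3 and AstroEGFR 3 are empty over the whole window.

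The group next in size, chr3:19410612-19479571, held 12 selected regions among 23, with 18 regions of AstroEGFR 1, 19 of PT1, 16 of PT4 and 0 of the absent libraries, and the nearest PT3 peak was 330359 bp away. Its regions were stronger than most, with a median lowest percentile of 72.4. Groups of 10 regions were found at chr7:56963707-57006341 and chr9:32858795-32900896, and groups of 9 at chr1:183504450-183546211 and chr4:88417344-88455990. Within these 4, AstroEGFR 3 had no peak and PT3 had a peak in 1 region, on chromosome 1. At the chromosome 7 group PT1 ranked highest, with a median percentile of 90.9 against 60.1 in AstroEGFR 1 and 75.5 in PT4. The other 3 ranked highest in PT4, with median percentiles of 83.2 on chromosome 1, 81.3 on chromosome 4 and 81.6 on chromosome 9.

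The selected regions were unevenly spread over the chromosomes, measured against the length of each chromosome that the peaks of the lists span. Chromosome 11 had the most per Mb (5.19, 632 regions), followed by chromosome 19 (4.86, 298 regions) and chromosome 10 (4.81, 618 regions). Chromosome 14 had the fewest of the autosomes (0.803 per Mb, 100 regions), and the X and Y chromosomes had 18 and 1. As a share of all regions below the width limit on a chromosome, the selected regions reached 11.0% on chromosome 3 and 10.5% on chromosome 17. They were 3.83% on chromosome 14 and 6.45% on chromosome 10, against 7.46% in the genome.

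Among the regions held by AstroEGFR 1, PT1 and PT4, the share that also had a PT3 peak differed between chromosomes. It was 59.5% on chromosome 10 (Wilson 95% interval 57.0% to 61.9%, of 1529 regions) and 28.7% on chromosome 3 (25.3% to 32.3%, of 634 regions), against 45.3% in all. The intervals cover counting error only. They treat neighbouring regions as independent and rest on the single PT3 list, so the difference between chromosomes was not tested. On chromosome 3, 69.9% of these regions were the selected ones, and on chromosome 10, 40.4%. The PT3 list placed 14.9% of its peaks on chromosome 10, at 46.6 per Mb, more than on any other chromosome, while 8.39% of the selected regions and 9.69% of all regions were there. On chromosome 3 it had 7.08 peaks per Mb. The share of regions with an AstroEGFR 3 peak was highest among the autosomes on chromosome 12, at 20.6%, and lowest on chromosome 10, at 2.75%.

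**Figure D5:**
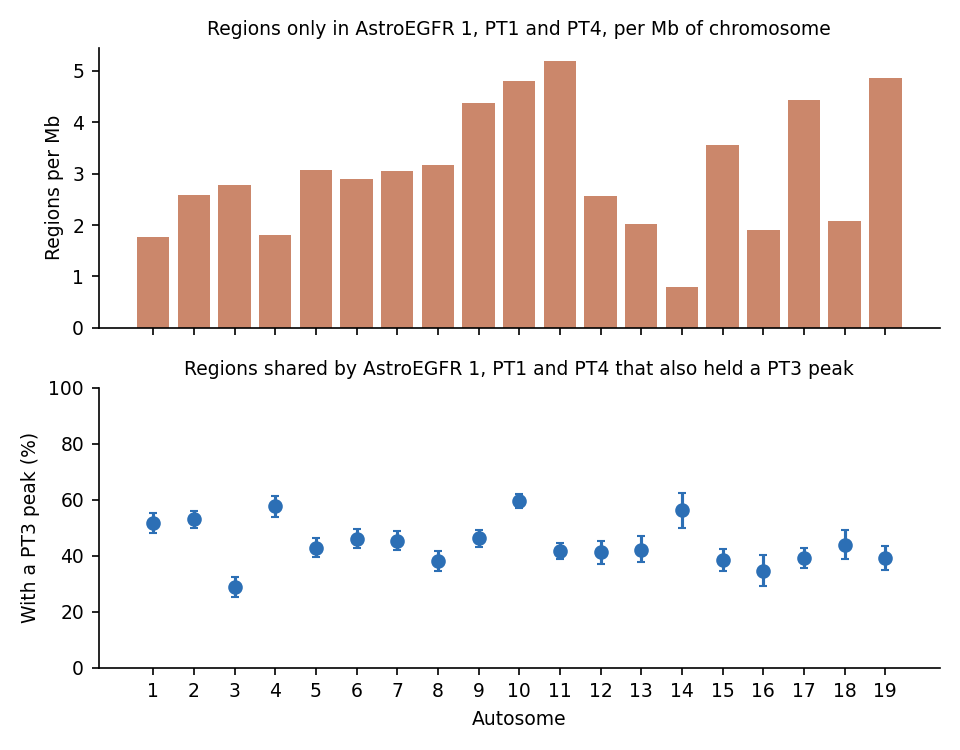
Top, number of selected regions per Mb of each autosome. Bottom, share (%) of the regions held by AstroEGFR 1, PT1 and PT4 that also had a PT3 peak, with Wilson 95% intervals, which cover counting error only. Chromosome 11 has the most selected regions per Mb (5.19) and chromosome 14 the fewest (0.803); the share with a PT3 peak is highest on chromosome 10 (59.5%) and lowest on chromosome 3 (28.7%).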

How the data were processed

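The authors deposited 1 peak list per library, from H3K27me3 chromatin immunoprecipitation and sequencing. The submitters' processing notes name Bowtie 0.12.9, MACS 1.4.1 and the build mm9. The threshold, the use of the 3 input libraries (not analysed here) and the read depth are not given in the sources used here. Column 5 of the deposited lists holds a score with no unit, treated as a log-scaled p-value and used for ranks within a list only.

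Lists were read with Python 3.11.15, pandas 2.3.3 and numpy 2.4.6. Wilson intervals were from scipy 1.17.1, and figures from matplotlib 3.10.9. Peaks were pooled and merged where they overlapped or touched, and a library counted as present with at least 1 bp. Percentiles are within a list. Distances run from edge to edge. The selection rule, the merging and the distances were tested on simulated lists, and the other steps were not. Regions were named by rule: the 10 with the highest lowest percentile, the 5 farthest from the absent lists, the 3 widest and the 3 just outside the width limit. Groups of neighbouring regions and shares by class were chosen after seeing the data. The regions and the comparisons were chosen with earlier results of these data known. The planned gene content, named genes and base composition need an mm9 annotation and genome, not used here.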

Additional observations from a re-analysis of the deposited data

How the results depend on the processing

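The number of selected regions (7369) stayed within 1.5 times under 8 of 15 settings and moved beyond that under 7. It was 3986 with the upper 50% of each list by score, 387 with an equal number of strongest peaks per list, 4028 with peaks up to 1000 bp apart merged and 4052 when no AstroEGFR 3 or PT3 peak was allowed within 5 kb. Leaving out 1 library gave 7539 to 22778, and leaving out both AstroEGFR 3 and PT3, a setting added after seeing the data, gave 14022. The share within 5 kb of an AstroEGFR 3 or PT3 peak (45.0%) was 33.9% with the upper 50%, 35.4% with scores of at least 100, 16.3% with equal numbers, 54.2% when a library had to cover 25% of the region, 24.98% after merging across 1000 bp, 45.5% below 5000 bp, 45.8% on autosomes, and 0 by construction when such peaks were not allowed. Leaving out 1 library gave 8.91% to 46.9%. Over the 9 settings that kept all libraries, the median width ran from 1837 to 5858 bp, the median lowest percentile from 37.5 to 94.8 and the share on chromosome 10 from 6.52% to 13.7%. Of the regions found with the upper 50% of each list, 58.3% had the bounds of a selected region, and with equal numbers 15.8%. The settings that kept peaks by score used the percentiles of the full lists, so they raise the median lowest percentile by construction. Distances under these settings ran to the kept peaks only. When 25% had to be covered, a smaller AstroEGFR 3 or PT3 peak inside a region counted as absent. It still counted as within 5 kb, which adds to that share by construction. Merging across 1000 bp removed regions with such a peak within that gap, which lowers the share by construction. The cause of the other shifts was not tested. Alternatives for transcription starts were not run. No paired analysis was possible because the selected regions are described without a test: all 5 lists entered their choice. The unknown read depth limits every statement on absence.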

Other observations

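A best peak at or above percentile 75 in each of AstroEGFR 1, PT1 and PT4 was found in 963 of all 7369 selected regions (13.1%). It was found in 83 of the 575 selected regions more than 100 kb from any AstroEGFR 3 or PT3 peak. The strongest of them, named after their values were seen, included chr6:47724860-47728624, with scores of 1074.63 in AstroEGFR 1, 2177.47 in PT1 and 1906.29 in PT4 and the nearest PT3 peak at 149368 bp. At chr7:96622278-96626562 the scores were 940.37, 2902.07 and 2322.62 in the same order, and the nearest PT3 peak was at 298087 bp. On chromosome 17 a pair of such regions lay within 100 kb of each other, chr17:6256627-6265769 with 815.22, 1487.58 and 2541.19, and chr17:6317570-6322028 with 1024.12, 2028.07 and 2047.83. The nearest PT3 peaks were 443781 and 504724 bp from them. These regions were picked for high ranks in all 3 libraries and for their distance, so both traits follow from the choice.

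When groups were joined across gaps of up to 50 kb, the group with the most held 33 selected regions over 212 kb and included the chromosome 11 stretch described above. The next were chr15:77217518-77528010 and chr5:107429071-107764398 with 31 each, over spans of 310 and 335 kb. These broader groups were not free of the absent libraries. PT3 had peaks in 3 of 93 merged regions of the chromosome 15 group and in 8 of 94 of the chromosome 5 group.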
